A study of Mus musculus with 8 samples.

Results

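Dazl, Sycp3, Asz1 and Ddx4 are genes of the germ line, and the data below are the methylated-DNA peaks found around them in intestinal epithelium, a somatic tissue. Peaks were taken from 4 mm9 intervals, chr17:50400000-50460000 for Dazl, chr10:87900000-87950000 for Sycp3, chr6:17980000-18080000 for Asz1 and chr13:113360000-113470000 for Ddx4. The intervals were set by position and gene, and the 4 genes were chosen with earlier results of these data known. Peaks of the 8 libraries that shared at least 1 bp were merged into regions. The intervals hold 66 of the 475861 merged regions, 13 in the Dazl interval, 12 in the Sycp3 interval, 15 in the Asz1 interval and 26 in the Ddx4 interval. Regions are numbered by position within an interval.

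The study profiled DNA methylation with MBD sequencing: methylated fragments are pulled out of sheared DNA by the domain of MBD proteins that binds methylated CpGs, and are then sequenced. All mice were of a mixed C57BL/6 CD1 strain, and each of the 4 groups had 2 libraries described as biological duplicates. Embryonic small-intestinal epithelium at E12.5 and at E14.5 was sorted as EpCAM+CD31-CD45-DAPI- cells, that is, living epithelial cells without an endothelial or leukocyte marker. Adult cells (P60) came from Lgr5EGFP-Cre-ERT males, both the Lgr5-EGFP high intestinal stem cells (ISC) and the enterocytes, so both adult groups carry this allele. The enterocytes were sorted with the same EpCAM+CD31-CD45-DAPI- gate as the embryonic cells, a gate that does not separate the cell types of the epithelium. Whether a replicate pooled several animals is not stated, nor is the sex of the embryos. The lists hold no expression, so neither cell identity nor the silence of the 4 genes in these cells could be checked here.

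In most somatic cells the promoters of many germline genes carry dense CpG methylation, laid down around implantation and kept through later divisions, and the genes are not transcribed. Dazl is an RNA-binding protein that controls translation in germ cells. Sycp3 is a component of the lateral elements of the synaptonemal complex, which pairs chromosomes in meiosis. Asz1 acts in the piRNA pathway that restrains transposons in male germ cells, and Ddx4, the mouse Vasa homologue, is a DEAD-box RNA helicase of germ cells. E2F6 and E-box-binding partners of a Polycomb repressive complex are known to target promoters of this class.

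An MBD pull-down captures a fragment by its methylated CpGs, so the CpG content of a promoter sets how much signal it can give. The promoters of the 4 genes are shown to make this density visible. They are RefSeq sequences on GRCm38.p6, read 5′ to 3′ on the gene's own strand (minus for Dazl, Asz1 and Ddx4, plus for Sycp3), from 250 bases before to 50 bases after the transcript start, 300 bases each, with every CpG in capitals.
Dazl: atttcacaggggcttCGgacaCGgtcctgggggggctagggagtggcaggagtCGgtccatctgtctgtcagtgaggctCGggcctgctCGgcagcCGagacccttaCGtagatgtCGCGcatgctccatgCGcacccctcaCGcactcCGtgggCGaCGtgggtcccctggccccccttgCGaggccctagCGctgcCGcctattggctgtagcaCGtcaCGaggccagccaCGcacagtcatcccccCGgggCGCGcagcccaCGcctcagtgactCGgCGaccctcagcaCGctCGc
Sycp3: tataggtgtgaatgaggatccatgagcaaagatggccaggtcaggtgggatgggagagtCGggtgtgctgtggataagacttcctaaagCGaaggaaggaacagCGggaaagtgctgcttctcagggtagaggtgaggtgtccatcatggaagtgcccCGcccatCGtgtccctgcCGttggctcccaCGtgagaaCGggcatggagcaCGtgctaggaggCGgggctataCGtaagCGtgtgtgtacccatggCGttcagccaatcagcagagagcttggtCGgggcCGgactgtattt
Asz1: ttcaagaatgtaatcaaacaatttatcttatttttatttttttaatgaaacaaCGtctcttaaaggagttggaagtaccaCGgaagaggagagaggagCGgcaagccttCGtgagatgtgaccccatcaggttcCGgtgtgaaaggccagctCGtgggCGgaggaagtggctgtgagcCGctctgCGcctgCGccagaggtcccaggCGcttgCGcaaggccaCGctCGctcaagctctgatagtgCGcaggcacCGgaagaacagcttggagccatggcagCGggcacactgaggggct
Ddx4: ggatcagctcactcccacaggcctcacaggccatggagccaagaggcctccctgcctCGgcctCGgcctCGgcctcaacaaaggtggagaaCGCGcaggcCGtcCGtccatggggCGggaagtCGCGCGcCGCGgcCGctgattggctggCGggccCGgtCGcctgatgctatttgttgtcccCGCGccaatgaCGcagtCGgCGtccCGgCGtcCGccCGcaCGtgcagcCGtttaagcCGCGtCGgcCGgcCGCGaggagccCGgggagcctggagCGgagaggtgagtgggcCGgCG

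All 4 promoters were richer in CpG than most. Ddx4 held 38 CpGs and stood at the 95.3rd percentile of the 32851 mouse promoters in the table. Dazl held 28 (86.4th percentile), Asz1 17 (69.4th) and Sycp3 15 (66.2nd), against a median of 7 over all promoters. The observed number of CpGs over the number expected from base composition was 0.978 for Ddx4, 0.795 for Dazl, 0.783 for Asz1 and 0.666 for Sycp3. The E2F core, searched as TCCCGC or GCGGGA and so on both strands, occurred once in the Sycp3 and once in the Ddx4 promoter. CACGTG, an E-box that reads the same on both strands, occurred at 2 places in Sycp3 and 1 in Ddx4, and neither motif was found in the Dazl or Asz1 window. Of all promoters of this length, 19.98% held the E2F core and 7.15% held CACGTG. Of 19 other germ-cell genes looked up, 17 were in the table with 21 promoters, which had a median of 21 CpGs (3 to 30), and 9 of these promoters (42.9%) held the E2F core and 15 (71.4%) CACGTG.

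The peaks are on mm9 and the promoters on GRCm38.p6, and positions were not converted. Whether a peak covers a promoter, an exon or an intron was therefore not determined, and the sequences above were not placed among the peaks.

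The 4 intervals did not look alike across libraries, and at E12.5 the peaks were few. Together the intervals held 16 and 13 peaks in the E12.5 libraries, 54 and 43 at E14.5, 32 and 42 in ISC and 17 and 29 in enterocytes. These are 0.0104% to 0.0170% of each library's list, so the low number at E12.5 goes with the short E12.5 lists. Over the whole series the libraries had 31438314 to 55442400 tags (sequenced fragments placed on the genome) and 84990 to 338262 peaks, with the E12.5 libraries deepest in tags and shortest in peaks. Peaks held 7.46% to 38.9% of the tags, and the median peak was 272 to 849 bp long. Each list was thresholded separately by the peak caller, which had no control library to compare with, so where a peak is missing, the tags fell short of that threshold and no more can be said. A lower share of methylated cells and less methylation per cell cannot be told apart in these data.

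**Figure D1:**
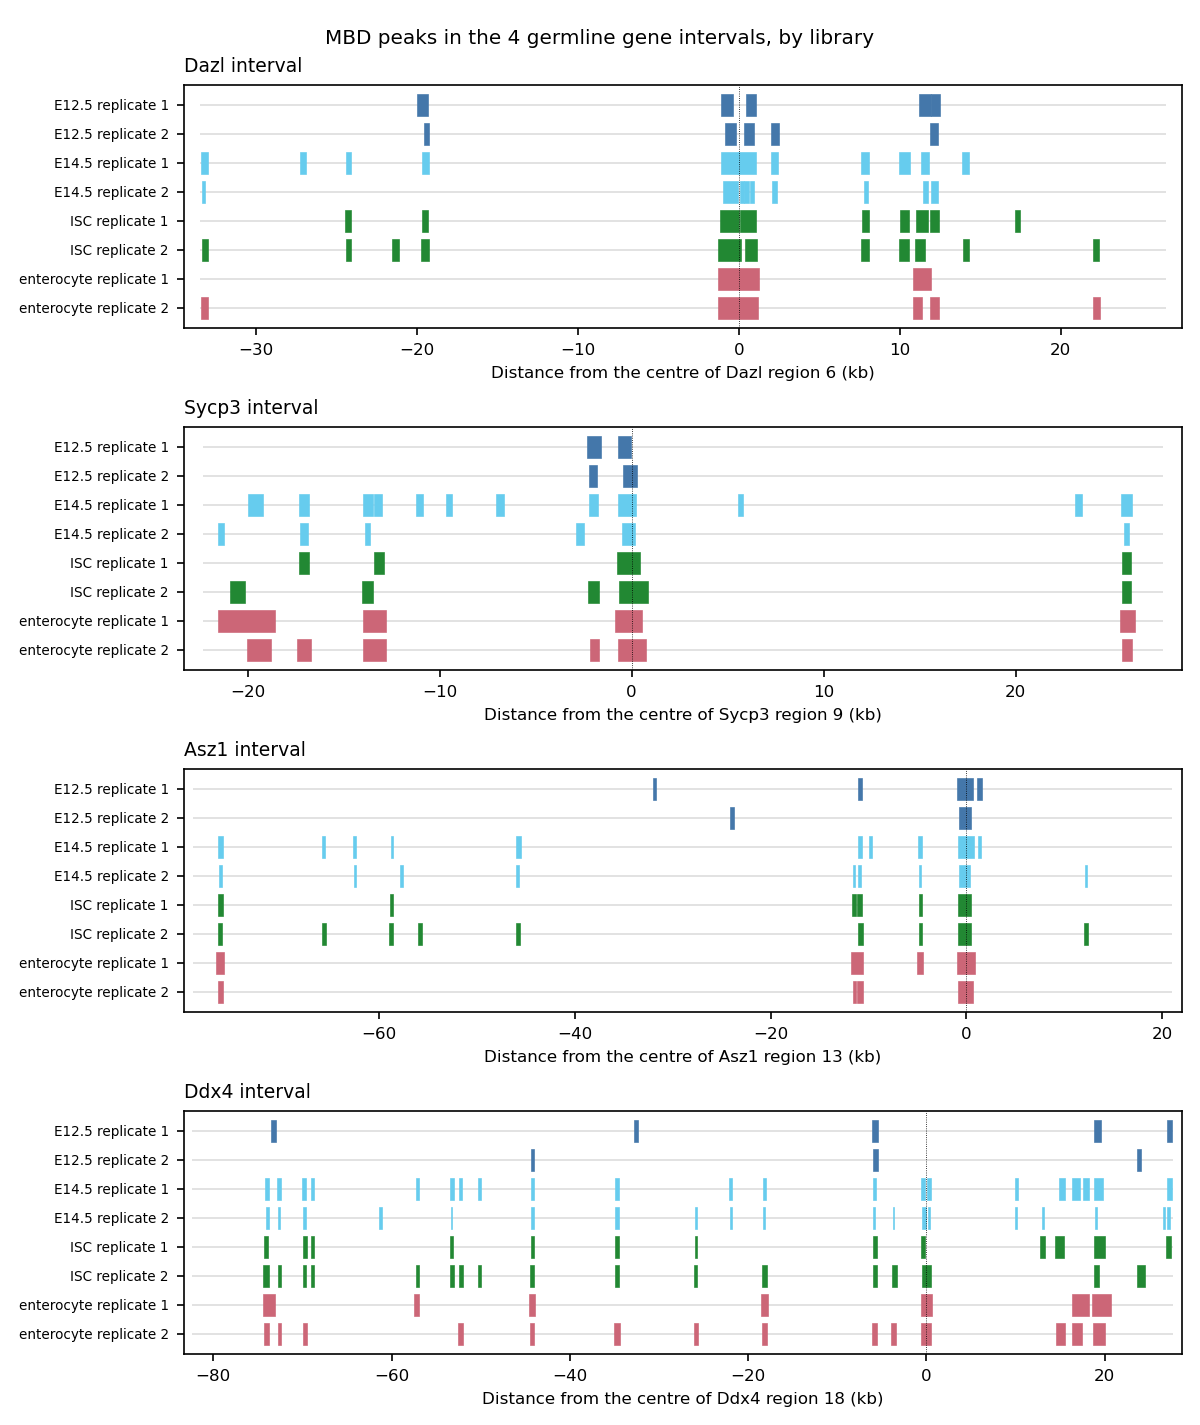
Every peak in the Dazl, Sycp3, Asz1 and Ddx4 intervals, 1 row per library, drawn to scale by distance in kb from the centre of the region with the highest median score percentile in that interval; grey lines show the extent of the interval. In the Dazl, Sycp3 and Asz1 panels all 8 libraries have a peak at or next to 0, while in the Ddx4 panel both E12.5 rows are empty at 0.

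In each interval 1 region had the highest median rank over the libraries that called it. Regions were ranked by peak score, the caller's negative log10 p-value times 10, as the percentile of a region's best peak within each library's own list, which makes lists of different length comparable in rank only. The leading region of each interval was Asz1 region 13 (chr6:18058052-18059887, median percentile 99.8), Dazl region 6 (chr17:50432207-50434743, 99.5), Sycp3 region 9 (chr10:87921488-87923178, 95.0) and Ddx4 region 18 (chr13:113441726-113442939, 87.7). The 62 other regions had median percentiles between 6.31 and 79.6, with a median of 33.3. The leading region was chosen by its rank, so its height above its neighbours is a description and not a test.

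**Figure D2:**
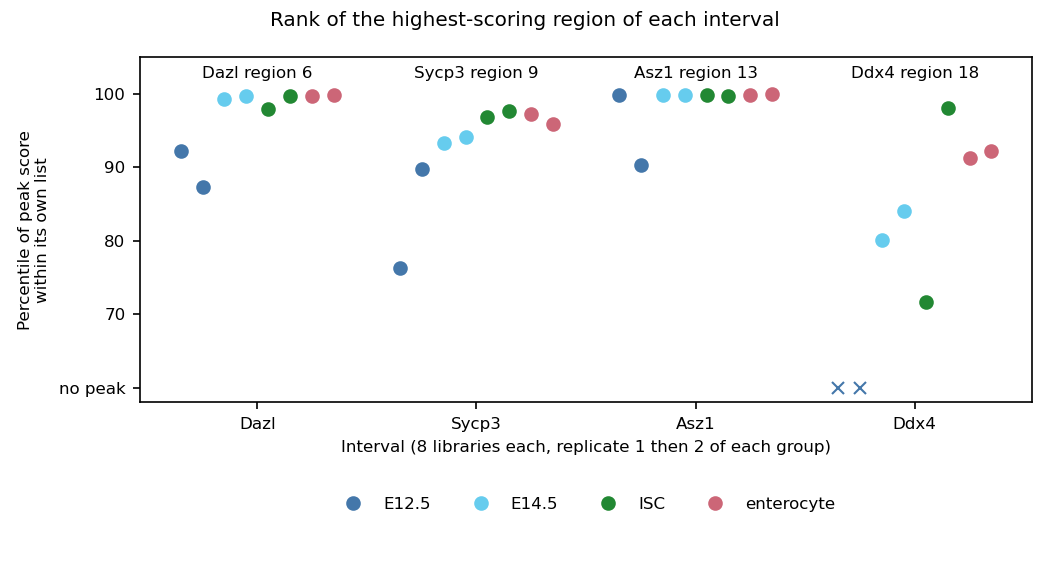
Percentile of the peak score within its own library's list for the leading region of each interval, 1 point per library (replicate 1, then 2 of each group) and a cross where a library has no peak. Asz1 region 13 and Dazl region 6 lie at 98.0 or higher in every library other than E12.5, Sycp3 region 9 between 93.3 and 97.6, and Ddx4 region 18 has no E12.5 peak.

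Dazl region 6 was called in all 8 libraries and was already among the higher peaks at E12.5. Its score percentile was 92.2 and 87.3 in the E12.5 libraries, 99.3 and 99.7 at E14.5, 98.0 and 99.7 in ISC, and 99.7 and 99.9 in enterocytes. It held 118 and 114 tags at E12.5, 196 and 193 at E14.5, 161 and 208 in ISC and 232 and 250 in enterocytes. The E12.5 libraries were the lowest and the enterocyte libraries the highest, and the groups other than E12.5 lay close together once divided by library depth. In RPM, the tags in peaks per 1000000 total tags of the library, the level was 2.10 ± 0.057 at E12.5 and 5.60 ± 0.098 at E14.5 (SD, n = 2 libraries in each group here and below). The ISC stood at 5.79 ± 1.17 and the enterocytes at 5.87 ± 0.731. The region is 2537 bp long, of which 905 bp lay in peaks of every library. It was called as 2 peaks in both E12.5 libraries, in E14.5 replicate 1 and in both ISC libraries, as 4 peaks in E14.5 replicate 2, and as 1 broad peak in both enterocyte libraries. The peaks of this region held 40.1% to 75.1% of all peak tags of the Dazl interval, with the 2 highest shares in enterocytes. The same share was 39.6% to 79.2% for Asz1 region 13, 15.2% to 65.9% for Sycp3 region 9 and 6.94% to 14.6% for Ddx4 region 18.

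Asz1 region 13 ranked highest of all. Its score percentile was 99.8 and 90.3 in the E12.5 libraries and 99.7 or higher in the other 6. It held 141 and 99 tags at E12.5, 149 and 120 at E14.5, 109 and 127 in ISC and 182 and 179 in enterocytes. In RPM this was 2.17 ± 0.542, 3.87 ± 0.616, 3.70 ± 0.479 and 4.39 ± 0.264 in the same order, so that E12.5 lay below the other 3 groups and those overlapped or touched within their spread. RPM includes a shift between E12.5 and E14.5 that the regions called in all libraries had in common. Less that shift, given below, almost no difference between E12.5 and E14.5 was left for this region. The fold enrichment over local background, a ratio given by the peak caller, was 5.00 and 4.32 at E12.5, 9.20 and 9.79 at E14.5, 8.04 and 8.69 in ISC and 5.77 and 9.92 in enterocytes. The median fold over each library's whole list also rose after E12.5. That median was 4.42 and 4.63 at E12.5, 6.58 and 7.71 at E14.5, 6.22 and 6.62 in ISC and 4.74 and 5.56 in enterocytes. Of the 1836 bp of Asz1 region 13, 1145 bp in all lay in peaks of all 8 libraries, the most of any region in the 4 intervals.

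Sycp3 region 9 was lower in rank but also present throughout. Its score percentile was 76.3 and 89.8 at E12.5, 93.3 and 94.1 at E14.5, 96.9 and 97.6 in ISC, and 97.3 and 95.9 in enterocytes. It held 54 and 58 tags at E12.5, 73 and 66 at E14.5, 88 and 113 in ISC and 119 and 122 in enterocytes. All 4 adult libraries had more tags than all 4 embryonic ones. In RPM the levels were 1.01 ± 0.048, 2.00 ± 0.156, 3.15 ± 0.622 and 2.93 ± 0.263. It did not hold the most tags of its interval in every library: Sycp3 region 1 held 237 in enterocyte replicate 1 and Sycp3 region 3 held 80 in E14.5 replicate 1. In E12.5 replicate 1, Sycp3 region 8 was above it both in tags (61) and in score percentile (78.0). The covered length of Sycp3 region 9 also differed, from 686 to 927 bp in the embryonic libraries and from 1218 to 1507 bp in the adult ones.

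Ddx4 region 18 differed from the other 3 in having no peak in either E12.5 library. It held 61 and 62 tags at E14.5, 31 and 83 in ISC and 85 and 81 in enterocytes. The 2 ISC libraries did not match each other, at 0.956 and 2.64 RPM, while the E14.5 libraries stood at 1.77 ± 0.009 and the enterocytes at 2.02 ± 0.077. Its score percentile was 80.03 and 84.1 at E14.5, 71.7 and 98.1 in ISC and 91.3 and 92.2 in enterocytes. It led its interval by the median only, and other regions ranked above it in several libraries. Ddx4 region 10 stood at 86.7 in E14.5 replicate 1 and Ddx4 region 1 at 93.3 in enterocyte replicate 1. Ddx4 region 11 stood at 87.1 in E14.5 replicate 2 and at 85.3 in ISC replicate 1. The E12.5 peaks nearest to Ddx4 region 18 were 4785 and 4840 bp away. The region kept its peak in the 6 other libraries when each list was cut to its 84990 highest-scoring peaks and when only the upper 50% of each list was kept. Such cuts only remove peaks, so they cannot tell anything about the missing E12.5 call. In the E12.5 libraries the faintest peaks called held 21 and 20 tags and the median peak held 47 and 42, so the lack of a call sets no tag count for this region.

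Levels compared between regions need division by length, and per kb of covered peak the 4 leading regions were close. In RPM per kb at E14.5 they stood at 2.93 ± 0.403 for Dazl region 6, 2.72 ± 0.211 for Asz1 region 13, 2.52 ± 0.339 for Sycp3 region 9 and 2.28 ± 0.312 for Ddx4 region 18. In enterocytes the order was Asz1 region 13 at 2.65 ± 0.487, Dazl region 6 at 2.36 ± 0.355, Sycp3 region 9 at 2.04 ± 0.118 and Ddx4 region 18 at 1.70 ± 0.105. Neighbours in each order differed by less than the larger of their SDs, except the last 2 in enterocytes. At E12.5 the 3 regions that were called stood at 1.54 ± 0.002 (Dazl), 1.55 ± 0.080 (Asz1) and 1.43 ± 0.060 (Sycp3). A peak must reach a density to be called at all, which narrows the range of such values.

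**Figure D3:**
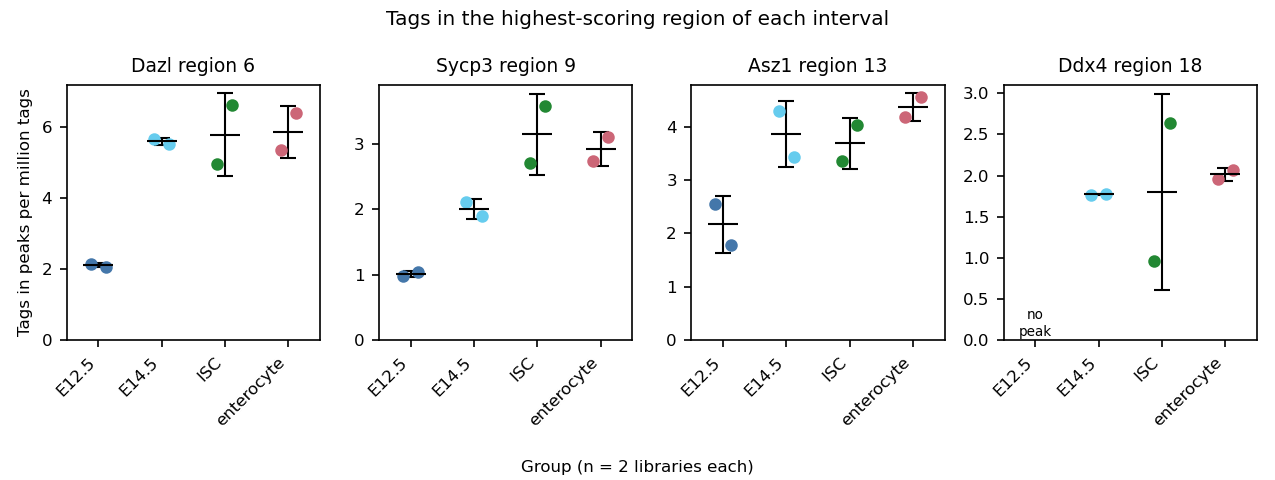
Tags in peaks per 1000000 total tags (RPM) for the leading region of each interval by group; points are libraries, the long bar is the mean and the error bar the SD (n = 2 libraries). Both E12.5 points lie below all 6 other libraries for Dazl region 6, Sycp3 region 9 and Asz1 region 13, and Ddx4 region 18 has no E12.5 value. RPM includes a shift between E12.5 and E14.5 common to the regions called in all libraries.

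Besides these 3 leading regions, Dazl region 10 (chr17:50444301-50445977) was also called in all 8 libraries, but it was of middling rank, with a median percentile of 47.5. It held 104 and 39 tags at E12.5, 33 and 112 at E14.5, 85 and 37 in ISC and 77 and 83 in enterocytes. Replicates differed more than 2-fold in 3 of the 4 groups, and no group stood apart. No base of it lay in a peak of every library, so its 8 calls do not mark a common stretch. In all, 4 of the 66 regions (6.06%) were called in every library, against 5.16% of all merged regions (7, or 10.6%, against 9.01% when E12.5 replicate 2 was left out), and 17 (25.8%) in a single library, against 28.1%. Sharing between libraries in these intervals was thus near the background of the whole series.

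**Figure D4:**
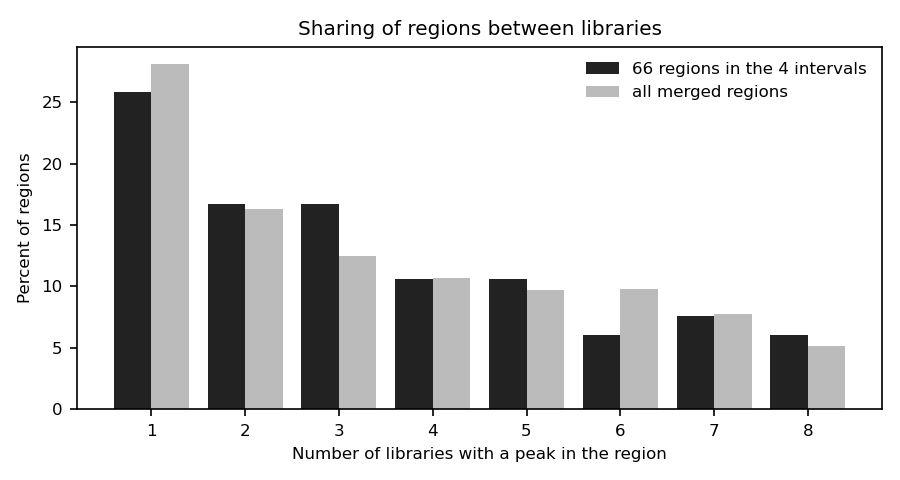
Percent of regions by the number of libraries with a peak in them, for the 66 regions of the 4 intervals (black) and all 475861 merged regions (grey). The bars run side by side, from 25.8% and 28.1% in a single library to 6.06% and 5.16% in all 8.

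The 2 embryonic stages, E12.5 and E14.5, cover the early growth of the intestinal epithelium. Of the 66 regions, 18 (27.3%) were called in the 2 E14.5 libraries but in no E12.5 library, against 23.9% of all merged regions. None had the reverse, against 0.276%. Both shares are near the background, and they were described and not tested, since 2 libraries against 2 cannot give an exact two-sided permutation p below 0.333. The Ddx4 interval held 8 of the 18, the Sycp3 and Asz1 intervals 4 each and the Dazl interval 2. Cutting each list to 84990 peaks left 28 regions in the intervals. Of these, 2 (7.14%) were E14.5-only, Asz1 region 1 and Ddx4 region 18, against 5.39% of all regions, and 2 (7.14%) were E12.5-only, Sycp3 region 8 and Ddx4 region 16, against 3.58%. Without E14.5 replicate 2, 36 regions (54.5%) were E14.5-only, against 39.7% of all. The E12.5-only count was 2 (3.03%) without E12.5 replicate 1, E12.5 replicate 2 or E14.5 replicate 1, against 2.05%, 2.61% and 0.81% of all.

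Of those 18 regions, 4 (6.06% of the 66) were also called in all 4 adult libraries, against 5.49% of all merged regions. These were Ddx4 region 18, Asz1 region 1 and Sycp3 regions 3 and 12. Asz1 region 1 (chr6:17982350-17983114) held 36 and 35 tags at E14.5, 35 and 23 in ISC and 50 and 37 in enterocytes, and its nearest E12.5 peaks were 7220 and 8872 bp away. Sycp3 region 12 (chr10:87947795-87948559) held 46 and 22 tags at E14.5, 28 and 28 in ISC and 48 and 37 in enterocytes, with E12.5 peaks 2208 and 2246 bp away. Both were modest peaks in which the groups overlapped. Sycp3 region 3 (chr10:87908306-87909536) held 80 and 30 tags at E14.5, 39 and 37 in ISC and 83 and 81 in enterocytes, so that enterocytes were alike and E14.5 was not.

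The other E14.5-only regions named were called in fewer adult libraries. Ddx4 region 11 (chr13:113407342-113407959) was the second in rank of its interval, at a median percentile of 79.6, with 32 and 39 tags at E14.5, 35 and 34 in ISC and 48 in enterocyte replicate 2. Ddx4 region 15 (chr13:113423780-113424523) held 31 and 19 tags at E14.5, 36 in ISC replicate 2 and 42 and 49 in enterocytes. Asz1 region 12 (chr6:18053916-18054522) held 30 and 15 at E14.5, 17 and 21 in ISC and 36 in enterocyte replicate 1. In each of these 3 the missing adult call was in 1 replicate of a pair. Sycp3 region 2 (chr10:87904935-87905637) held 51 and 41 tags at E14.5, 44 in ISC replicate 1 and 69 in enterocyte replicate 2. Asz1 region 7 (chr6:18012923-18013454) held 34 and 27 at E14.5 and 26 in ISC replicate 2. Dazl region 1 (chr17:50400096-50400540) held 26 and 17 at E14.5, 21 in ISC replicate 2 and 25 in enterocyte replicate 2, and an E12.5 replicate 1 peak of 64 tags lay 574 bp away. The median percentile was 25.3 for Sycp3 region 2, 60.5 for Asz1 region 7 and 27.8 for Dazl region 1.

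The comparison of ISC with E14.5 asks what differs between adult stem cells and the fetal epithelium. No region was called in the 2 ISC libraries but in no E14.5 library, against 1.91% of all merged regions, and 4 (6.06%) had the reverse, against 6.69%. Leaving out single libraries moved both counts, and the background with them. The ISC-only count was 5 (7.58%, against 5.21% of all) without E14.5 replicate 1, 4 (6.06%, against 8.03%) without ISC replicate 1, and 1 (1.52%) without E14.5 replicate 2 or ISC replicate 2, against 4.33% and 5.09%. The E14.5-only count was 8 (12.1%, against 18.1%) without E14.5 replicate 1, 13 (19.7%, against 16.5%) without E14.5 replicate 2 and 9 (13.6%, against 17.1%) without ISC replicate 2. Of the 4 E14.5-only regions in the full lists, all but Dazl region 7 held fewer tags than the median E14.5 peak (33 and 26). Dazl region 7 (chr17:50435480-50435971) held 31 and 38 tags at E14.5, and was also called in E12.5 replicate 2 with 39. ISC peaks lay 938 and 886 bp from it. Asz1 region 3 (chr6:17996311-17996667) held 22 and 13 tags, Ddx4 region 14 (chr13:113420165-113420552) 26 and 13 and Ddx4 region 19 (chr13:113452248-113452606) 21 and 19. These 3 were called in both E14.5 libraries and in no other, 4.55% of the 66 regions against 3.68% of all, and the nearest ISC peak was 2520 bp away or more.

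The comparison of enterocytes with ISC follows differentiation from the crypt to the villus. Of the 66 regions, 7 (10.6%) were called in the 2 ISC libraries but in no enterocyte library, against 3.85% of all merged regions, and 1 (1.52%) had the reverse, against 1.28%. With the full lists the share of ISC-only regions was above the background, with 4 of the 7 in the Dazl interval, 2 in the Ddx4 interval and 1 in the Asz1 interval. The enterocyte lists are shorter than that of ISC replicate 2, and their peaks are longer, with a median of 849 and 615 bp against 474 and 502 bp. With lists cut to 84990 peaks no ISC-only region was left of 28, against 2.31% of all regions. In the upper 50% of the lists 1 of 35 was left (2.86%, against 3.7%). Neither share was above the background. These cuts drop low-scoring peaks, and the 7 regions had median percentiles of 23.0 to 63.0. The cuts therefore do not decide whether the share exceeds the background. The ISC-only count was 7 (10.6%, against 3.73%) with 50% of a region to be covered. It was 5 (8.47%, against 3.87%) with peaks merged within 500 bp. The count was 15 (22.7%, against 15.2%) without ISC replicate 1 and 11 (16.7%, against 9.7%) without enterocyte replicate 2. The enterocyte-only count was 3 (4.55%, against 6.68%) without ISC replicate 2. The part of list length and peak width in this count was not tested.

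Dazl region 5 (chr17:50413494-50414261) was the most widely called of the 7. It held 44 and 26 tags at E12.5, 38 in E14.5 replicate 1 and 23 and 39 in ISC, and the nearest enterocyte peaks were 15506 and 12954 bp away. Dazl region 3 (chr17:50409056-50409428) held 22 tags in E14.5 replicate 1 and 23 and 23 in ISC, with enterocyte peaks 11068 and 8516 bp away. Both lie on the side of the interval where enterocyte calls were sparse, as the map of peaks shows. Dazl region 8 (chr17:50441053-50441588) held 38 and 21 tags at E14.5 and 34 and 30 in ISC. Dazl region 9 (chr17:50443424-50444121) held 52 in E14.5 replicate 1 and 44 and 47 in ISC, but enterocyte peaks came within 180 and 193 bp of it. That region therefore borders Dazl region 10, which enterocytes did show.

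Outside the Dazl interval the ISC-only regions were of similar size. Asz1 region 4 (chr6:18000003-18000423) held 18 tags in E14.5 replicate 1 and 19 and 24 in ISC, with the nearest enterocyte peaks 16889 and 16974 bp away. Ddx4 region 4 (chr13:113373288-113373683) held 24 in E14.5 replicate 1 and 22 and 19 in ISC. Ddx4 region 7 (chr13:113388852-113389311) held 32 and 13 at E14.5 and 23 and 24 in ISC. Enterocyte replicate 2 had peaks 447 and 509 bp from these 2 Ddx4 regions. The single enterocyte-only region, Ddx4 region 22 (chr13:113458639-113460560), held 127 tags in E14.5 replicate 1 and 153 and 95 in enterocytes, at a low fold enrichment of 3.23 and 3.47, and ISC peaks lay 547 and 534 bp away. It was no longer counted when peaks within 500 bp were merged.

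No region in the 4 intervals separated the 4 adult from the 4 embryonic libraries in either direction. Of all merged regions, 0.402% were called in the adult libraries only and 0.139% in the embryonic libraries only. Over the settings run, the only count above 0 was 1 embryo-only region (1.52%, against 0.428% of all), seen when E12.5 replicate 1 was left out.

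Several further regions were called in most libraries without following a group in the full lists. Ddx4 region 1 (chr13:113367867-113369338) held 44 tags in E12.5 replicate 1, 33 and 23 at E14.5, 24 and 46 in ISC and 101 and 48 in enterocytes. Ddx4 region 16 (chr13:113436248-113436941) held 52 and 44 tags at E12.5, 24 and 18 at E14.5, 27 and 25 in ISC and 35 in enterocyte replicate 2. There the E12.5 libraries had the most tags, which none of the leading regions showed, but in RPM (0.941 and 0.794) they overlapped the others (0.516 to 0.894). Ddx4 region 10 (chr13:113397747-113398387) held 30 tags in E12.5 replicate 2, 39 and 27 at E14.5, 17 and 38 in ISC and 42 and 31 in enterocytes. Asz1 region 10 (chr6:18047209-18048416) held 36 tags in E12.5 replicate 1, 31 and 44 at E14.5, 52 and 30 in ISC and 78 and 59 in enterocytes. Sycp3 region 8 (chr10:87920000-87920730), next to the leading region of its interval, held 61 tags in E12.5 replicate 1 and 30 in replicate 2, and was also called in 3 of the 6 other libraries. Per interval, E12.5 peaks were found in 7 of the 26 Ddx4 regions, 5 of the 15 Asz1 regions, 4 of the 13 Dazl regions and 2 of the 12 Sycp3 regions. The same share over all merged regions was not computed, so no difference is read from these counts. Peaks in the 4 intervals made up 0.0159% and 0.0153% of the E12.5 lists, within the range of the other libraries (0.0104% to 0.0170%). The 62 regions other than the leading 4 held 13 to 237 tags per library where called, with a median of 32, and a fold enrichment of 2.87 to 12.2 with a median of 6.11.

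Tag counts could be tested only where every list has a peak, because the files give no tags outside peaks. The edgeR quasi-likelihood test was run over the 24563 regions called in all 8 libraries, with Benjamini-Hochberg adjustment over all of them and libraries scaled by TMM to these shared regions. None of the 4 germline regions passed an adjusted p of 0.05 in any of the 4 comparisons. Over all regions tested, 0.387% passed for E14.5 with E12.5, 0% for ISC with E14.5, 0% for enterocytes with ISC and 0.208% for adult with embryonic libraries. At an unadjusted p under 0.05 the count was 1 of 4 for E14.5 with E12.5 (16.3% of all regions), 1 for ISC with E14.5 (6.2%), 0 for enterocytes with ISC (3.54%) and 1 for adult with embryonic libraries (11.8%). DESeq2 called 0 of 4 after adjustment in each comparison, and at an unadjusted p under 0.05 called 1 region, in the adult with embryonic comparison.

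Dazl region 6 was higher at E14.5 than at E12.5 by a log2 difference of 0.60 ± 0.24 (SE), which did not pass edgeR's adjustment (adjusted p = 0.252). Between ISC and E14.5 (-0.03 ± 0.24) and between enterocytes and ISC (-0.02 ± 0.24) its differences were far smaller than their error. Sycp3 region 9 had the largest adult difference of the 4, 0.59 ± 0.18 for the 4 adult against the 4 embryonic libraries (edgeR adjusted p = 0.217). Its successive differences were 0.15 ± 0.27 from E12.5 to E14.5, 0.58 ± 0.26 from E14.5 to ISC (edgeR adjusted p = 0.790) and -0.14 ± 0.25 from ISC to enterocytes. Asz1 region 13 had log2 differences of 0.01 ± 0.25 for E14.5 with E12.5, -0.12 ± 0.25 for ISC with E14.5, 0.20 ± 0.25 for enterocytes with ISC and -0.02 ± 0.17 for adult with embryonic libraries, each smaller than its error. Dazl region 10 gave between -0.25 and -0.04 with errors of 0.43 to 0.61, too wide to show any difference of that size.

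These differences are relative to the other shared regions, and the scale mattered. When total tags served as the library size, the median of all 24563 regions moved by 0.81 for E14.5 with E12.5 and by 0.49 for adult with embryonic libraries. On that scale Dazl region 6 was called for E14.5 with E12.5 at 1.42 (edgeR adjusted p = 0.00978) and Sycp3 region 9 at 0.98 (edgeR adjusted p = 0.0378). For adult with embryonic libraries Dazl region 6 was called at 0.77 (edgeR adjusted p = 0.0344) and Sycp3 region 9 at 1.09 (edgeR adjusted p = 0.0161). Less the median shift, Dazl region 6 stood at 0.60 and Sycp3 region 9 at 0.17 for E14.5 with E12.5, and at 0.28 and 0.60 for adult with embryonic libraries, so the calls on this scale include a shift common to the shared regions. Asz1 region 13 was not called on this scale, and less the shift it stood at 0.02 and -0.02 in the same order. The E12.5 libraries held 3.21% and 2.81% of their tags in the shared regions, against 4.94% to 6.66% in the other 6. Divided by covered length, the adult difference of Sycp3 region 9 turned to -0.30 and that of Dazl region 6 to -0.28, where the median of all regions was at -0.42.

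**Figure D5:**
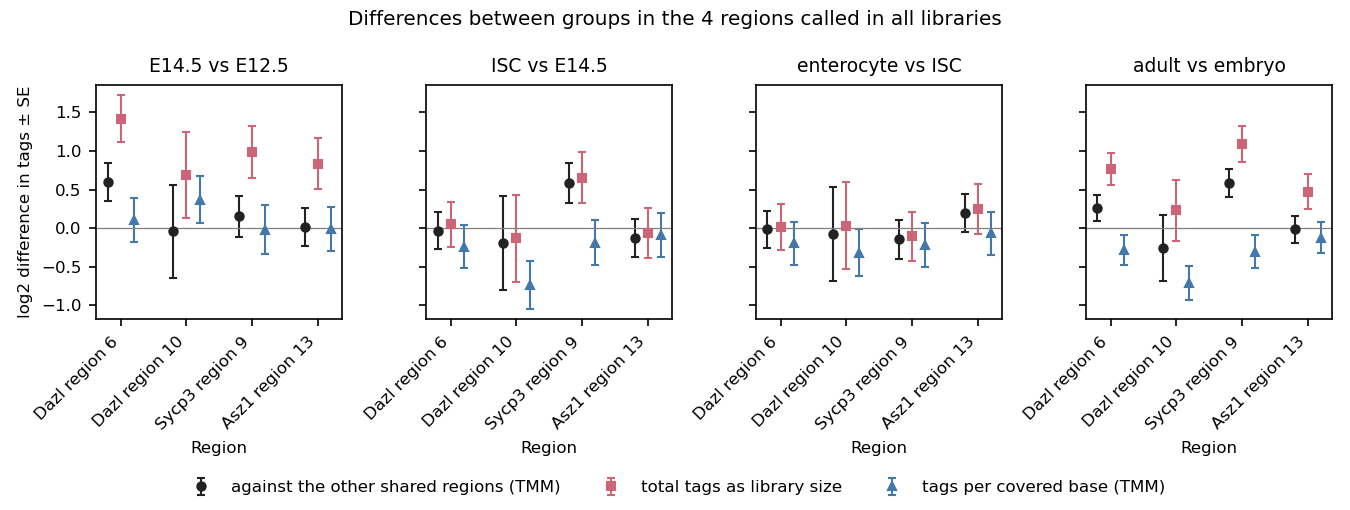
Log2 difference in tags with its SE for the 4 regions called in all libraries, in 4 comparisons, relative to the other shared regions (black circles), with total tags as library size (red squares) and per covered base (blue triangles). The red squares lie above the black circles in the first panel (E14.5 with E12.5) and the last (adult with embryo), where the median of all regions moved by 0.81 and 0.49.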

How the data were processed

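MBD pull-down DNA of 8 libraries was analysed from the authors' peak lists, 1 per library, in mm9 coordinates. Per the labels' protocols, DNA was fragmented and enriched with the MethylMiner kit. The tools named, per the submitters' processing notes, were Bowtie 1.1.2, SAMtools 1.2 and bcl2fastq 1.8.4. Per the file headers, MACS 1.4.2 called peaks in each library on its own, without a control, at a p cutoff of 1e-05. The deposited tag counts per peak are whole and not normalized. The score is the authors' negative log10 p-value times 10, and the fold is the authors' ratio to local background. With no input library, copy number or repeats can be called as peaks.

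The 4 members and the list of other germ-cell genes were chosen with earlier results of these data known. Lists were merged at 1 bp overlap. A region counted as called on one side only when every library of one group and none of the other had a peak. Tags were summed over a library's peaks in a region, and total tags came from the file headers. The 24563 regions with a peak in all 8 lists were tested with edgeR 4.0.16 (quasi-likelihood, TMM, all 4 groups in 1 fit, Benjamini-Hochberg), with DESeq2 1.42.0 as an alternative, in R 4.3.3. The test was checked on simulated data. Regions missing a peak in any library were described without a test. Named regions were those called in all 8 libraries, the 3 others per interval called in most libraries, and up to 3 per interval, comparison and direction called on one side only. Libraries were not treated as paired by replicate number in the main test. The correlation of same-numbered deviations from group means was -0.017 to 0.067 over 6 pairs of groups. Such values cannot exclude animals or batches shared between groups.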

Additional observations from a re-analysis of the deposited data

How the results depend on the processing

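Presence depended on list length. The 66 germline regions became 28 with equal-length lists and 35 in the upper 50% of lists by score. Those called at E14.5 and not E12.5 went from 18 (27.3%, against 23.9% of all regions) to 2 (7.14%, against 5.39%) and 9 (25.7%, against 20.1%), and to 6 (9.09%, against 10.2%) with 50% of a region to be covered. The reverse went from 0 to 2 (7.14%, against 3.58%) and 1 (2.86%, against 0.378%) in the shortened lists. E14.5-only regions against ISC went from 4 to 0 (against 2.98%), 2 (5.71%, against 6.59%) and, under the cover rule, 2 (3.03%, against 3.89%). ISC-only regions against enterocytes went from 7 to 0 (against 2.31%) and 1 (2.86%, against 3.7%). They stayed at 7 (10.6%, against 3.73%) under the cover rule and were 5 (8.47%, against 3.87%) with peaks merged within 500 bp. The enterocyte-only region went from 1 to 0, 0 and 2 (against 2.88%, 1.53% and 3.18%), and to 0 (against 1.23%) with peaks merged within 500 bp. Regions called in all 8 libraries went from 4 to 3 (10.7%, against 5.07%) with equal-length lists and 3 (8.57%, against 3.62%) in the upper 50%. Under the cover rule they went to 2 (3.03%, against 1.13%). Leaving out each library in turn moved the counts, and the shares of all regions with them. E14.5-only gave 18 to 36 (27.3% to 54.5%, against 23.9% to 41% of all). E12.5-only gave 0 to 2 (at most 3.03%, against 0.276% to 2.61%). Against ISC, E14.5-only gave 4 to 13 (6.06% to 19.7%, against 6.69% to 18.1%). ISC-only gave 0 to 5 against E14.5 (at most 7.58%, against 1.91% to 8.03%). Against enterocytes it gave 7 to 15 (10.6% to 22.7%, against 3.85% to 15.2%). Enterocyte-only gave 1 to 3 (1.52% to 4.55%, against 1.28% to 6.9%). Embryo-only gave 0 to 1 (at most 1.52%, against 0.156% to 0.505%), and all libraries 4 to 7 (6.06% to 10.6%, against 5.23% to 9.01%).

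For tags, the number of germline regions called by edgeR went from 0 to 2 for E14.5 with E12.5 and from 0 to 2 for adult with embryonic libraries with total tags as library size, and was 0 under every other setting run. Of the 112 values of single regions, 21 changed sign. With total tags these were Dazl region 10 (0.687 for E14.5 with E12.5, 0.034 for enterocytes with ISC, 0.229 for adult with embryo), Dazl region 6 (0.0478 for ISC with E14.5, 0.0194 for enterocytes with ISC) and Asz1 region 13 (0.474 for adult with embryo). Per covered base they were Asz1 region 13 (-0.00651 for E14.5 with E12.5, -0.0666 for enterocytes with ISC), Dazl region 10 (0.37 for E14.5 with E12.5), Sycp3 region 9 (-0.0178 for E14.5 with E12.5, -0.186 for ISC with E14.5, -0.305 for adult with embryo) and Dazl region 6 (-0.281 for adult with embryo). With the highest-tag peak only they were Dazl region 10 (0.223 for E14.5 with E12.5, 0.027 for enterocytes with ISC), Dazl region 6 (0.592 for enterocytes with ISC, where the ISC libraries split the region into 2 peaks) and Asz1 region 13 (0.0855 for adult with embryo). With peaks merged within 500 bp they were Asz1 region 13 (-0.18 for E14.5 with E12.5) and Dazl region 10 (0.274 for E14.5 with E12.5, 0.223 for ISC with E14.5). Over all regions the median log2 difference with total tags was 0.812, 0.0548, 0.0331 and 0.49 in the 4 comparisons, in the report's order. Per covered base the median was 0.0267, -0.253, -0.359 and -0.421. Less the median with total tags, only Dazl region 10 for enterocytes with ISC (0.0009) kept the sign that total tags had changed. The cause of the sign changes was not tested except where a setting's construction shows it. Leaving out a library changed 15 of 128 signs and no call. The ranges where a sign changed were -0.127 to 0.208 (Asz1 region 13, E14.5 with E12.5), -0.0758 to 0.0917 (Asz1 region 13, adult with embryo), -0.161 to 0.106 and -0.108 to 0.0754 (Dazl region 6, ISC with E14.5 and enterocytes with ISC). Dazl region 10 ranged from -1.38 to 0.723, -1.15 to 1.14, -0.68 to 0.876 and -0.732 to 0.413 in the 4 comparisons, in the report's order.

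With the replicate number as a replicate block, edgeR called 0 of the 4 regions in each comparison, and the only sign that changed was that of Dazl region 10 for E14.5 with E12.5 (0.0183). Over all regions the block left 0 calls for E14.5 with E12.5 in place of 95, and 26 for adult with embryo in place of 51. The filter at a mean of 20 tags removed no region. With 2 libraries a group, depth and number of libraries limit all of these values.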
